A study of Mus musculus with 12 samples.

Results

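The genes described here are 8 genes of the neutrophil primary granule and of the progenitors that fill it: Mpo, Elane, Prtn3, Ctsg, Prss57, Ms4a3, Fcnb and Serpinb1a. They were chosen by symbol from the 24421 entries of an expression table of mouse bone marrow, and all 8 were among the 11767 genes tested. The choice was made with results of these same samples known, namely that the genes were higher after injury in young mice and that this difference was not seen in aged mice. The members are therefore described by their values, counts and differences between groups with standard errors, and no p-value is given for them.

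Bone marrow RNA of C57BL/6 mice was sequenced in 12 samples, with 3 in each of 4 groups. Young-CON and Aged-CON were control mice without brain injury, and Young-TBI and Aged-TBI were mice given a traumatic brain injury, whose marrow was taken on day 3. No transgene or drug is named for any group. The ages in weeks or months, the sex, the way the injury was made, any sham operation of the controls, and whether a sample was 1 mouse or a pool are not stated in the labels. A p-value or standard error below therefore reflects the scatter within the groups of 3, pooled over the 12 samples, and that scatter could be technical. In the main fit a gene has the same standard error in each comparison of 2 groups. Expression is given as FPKM, which scales fragments to transcript length and library depth, and genes were tested with limma, a linear model over all genes; a gene passed at an adjusted p under 0.05. A variant of that test, voom, was run on fragment numbers recovered from the FPKM. RNA came from whole marrow, in which fewer cells of a type and less RNA per cell cannot be told apart.

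Primary granules, also called azurophil granules, are the first granules that a developing neutrophil makes. Their proteins are made in a short window at the promyelocyte stage, after which the genes are shut down while the secondary and then the tertiary granules are filled. A mature neutrophil thus carries the proteins but little of their mRNA, and in marrow these transcripts mark early neutrophil precursors. Mpo encodes myeloperoxidase, which makes hypochlorous acid from hydrogen peroxide. Elane, Prtn3 and Ctsg encode the serine proteases neutrophil elastase, proteinase 3 and cathepsin G, which cathepsin C trims to their active form and which are packed on the proteoglycan serglycin. Prss57 encodes another neutrophil serine protease, known as NSP4. The last 3 genes are not proteases: Ms4a3 encodes a membrane protein of granulocyte and monocyte progenitors, Fcnb encodes the lectin ficolin B, and Serpinb1a encodes a cytosolic inhibitor of elastase, proteinase 3 and cathepsin G. The label of the list thus fits the enzymes more closely than Ms4a3 and Serpinb1a.

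The genes lie at 6 places in the genome (GRCm38, GENCODE M21). Prss57 (chromosome 10, 79781474 to 79790961, minus strand), Prtn3 (79874476 to 79883174, plus strand) and Elane (79886247 to 79888215, plus strand) are neighbours, with 3072 bases between Prtn3 and Elane and 83514 bases between Prss57 and Prtn3. Mpo is on chromosome 11 (87793581 to 87804413, plus strand), Ctsg on chromosome 14 (56099881 to 56102574, minus strand) and Ms4a3 on chromosome 19 (11629496 to 11640851, minus strand). Fcnb is on chromosome 2 (28076378 to 28084885, minus strand) and Serpinb1a on chromosome 13 (32842092 to 32851185, minus strand). Prtn3 overlaps Lppr3, Prss57 overlaps Fstl3 and Mpo overlaps the antisense gene Gm11505, each on the opposite strand. The sources used here do not say whether strand entered the counting. Lppr3 was at 9.10 to 14.9 FPKM and Fstl3 at 0.17 to 1.16 FPKM, so Prss57, at 7.84 to 17.0 FPKM, lies closest in level to its partner among the pairs measured.

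The promoters are shown because the genes moved together across the samples and the early myeloid factors that act on such genes bind short DNA words. The members were chosen with a shared pattern over the groups known, so moving together follows in part from that choice. RefSeq gave a promoter on GRCm38.p6 for 6 of the 8 genes; Prss57 and Serpinb1a were not matched. The first 4 lines give the 250 bases before the RefSeq start, 5′ to 3′ on the strand of the gene, and the last 2 lines give the 46 bases around a single match. Capitals mark GGAAGT, the core word of the Ets family factor PU.1. The intervals are chr10:79886062-79886311 (plus strand) for Elane, chr10:79879417-79879666 (plus) for Prtn3, chr11:87793534-87793783 (plus) for Mpo, chr14:56102575-56102824 (minus) for Ctsg, chr2:28085040-28085085 (minus) for Fcnb and chr19:11640881-11640926 (minus) for Ms4a3.
Elane: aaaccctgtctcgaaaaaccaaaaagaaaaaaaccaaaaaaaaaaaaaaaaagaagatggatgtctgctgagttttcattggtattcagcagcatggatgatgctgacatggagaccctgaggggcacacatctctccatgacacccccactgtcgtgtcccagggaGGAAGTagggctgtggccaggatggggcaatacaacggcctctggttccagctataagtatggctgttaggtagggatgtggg
Prtn3: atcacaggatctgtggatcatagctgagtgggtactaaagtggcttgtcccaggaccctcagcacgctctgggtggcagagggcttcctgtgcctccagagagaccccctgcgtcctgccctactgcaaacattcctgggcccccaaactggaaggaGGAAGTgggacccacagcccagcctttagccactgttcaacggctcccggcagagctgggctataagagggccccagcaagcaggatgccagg
Mpo: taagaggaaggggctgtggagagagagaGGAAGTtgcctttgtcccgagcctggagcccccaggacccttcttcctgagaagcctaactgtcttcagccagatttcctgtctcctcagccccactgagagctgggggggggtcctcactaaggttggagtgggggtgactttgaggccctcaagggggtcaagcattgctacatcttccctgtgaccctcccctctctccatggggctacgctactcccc
Ctsg: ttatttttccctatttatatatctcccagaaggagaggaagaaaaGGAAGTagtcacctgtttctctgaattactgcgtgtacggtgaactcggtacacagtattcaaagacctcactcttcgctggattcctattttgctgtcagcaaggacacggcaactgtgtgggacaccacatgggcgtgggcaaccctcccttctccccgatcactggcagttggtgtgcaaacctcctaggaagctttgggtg
Fcnb: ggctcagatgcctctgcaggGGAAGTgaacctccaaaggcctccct
Ms4a3: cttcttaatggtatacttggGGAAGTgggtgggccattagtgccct

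The words were chosen after these sequences had been seen and are a description. Each word was searched on both strands of windows from 250 bases before to 50 bases after the start. GGAAGT was present in 6 of 6 members and in 23.8% of all 32851 promoters. Counted from the start, with −1 as the base before it, its left base lay at −93 in Prtn3, −83 in Elane, −222 in Mpo, −205 in Ctsg and −55 in Ms4a3, and Fcnb held it at −187 and −102. Ms4a3 held it also at 18, on the opposite strand. The longer word GAGGAAGT, which contains the first, was present in Prtn3, Elane and Mpo and in 3.2% of all promoters. AACGG, the core word of MYB, was present in Prtn3 at −55 and in Elane at −50, and in 17.4% of all promoters. TTGCNNAA, a C/EBP word, was present in Fcnb and Ms4a3 (10.8% of all), and TGTGGT, the RUNX word, in Ctsg (16.8% of all). A match is not evidence that a factor was bound there.

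The depth of the 12 samples lay between 12.3 and 15.9 M fragments, as recovered from the steps of the low values. A member's value rested on 291 to 41720 fragments, so counting error was 0.490% to 5.86% of the value. The coefficient of variation within groups ran from 0.56% to 15.5% over the members. Young-CON 2 and Aged-CON 1 stood apart from their groups in red cell precursor genes: the mean log2(FPKM + 1) of that list was 6.28 in Young-CON 2 against 7.28 and 7.09, and 7.45 in Aged-CON 1 against 6.60 and 6.53. In Aged-TBI it was 7.62, 7.72 and 7.71, and in Young-TBI 6.92, 6.94 and 6.52. The members' medians, counts and correlations are also given without these 2 samples. The levels and ratios printed sample by sample include them.

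By group means, young marrow after injury held 1.36 to 2.24 times as much RNA of these genes as young control marrow, aged controls stood between those groups, and aged injured marrow was at 0.913 to 0.992 times the level of aged controls. Mpo was the most abundant member. It was at 586, 668 and 571 FPKM in samples 1, 2 and 3 of Young-CON and at 1234, 940.1 and 1142 FPKM in those of Young-TBI. The aged controls were at 896, 824 and 827 FPKM and the aged injured samples at 834, 737 and 805 FPKM. Every Young-TBI sample exceeded every Young-CON and Aged-CON sample, and the aged groups overlapped. The means were 608 ± 52.1 FPKM in young controls, 1105 ± 150.4 FPKM in young injured, 849 ± 40.4 FPKM in aged control and 792 ± 49.4 FPKM in aged injured marrow (SD, n = 3 each).

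**Figure D1:**
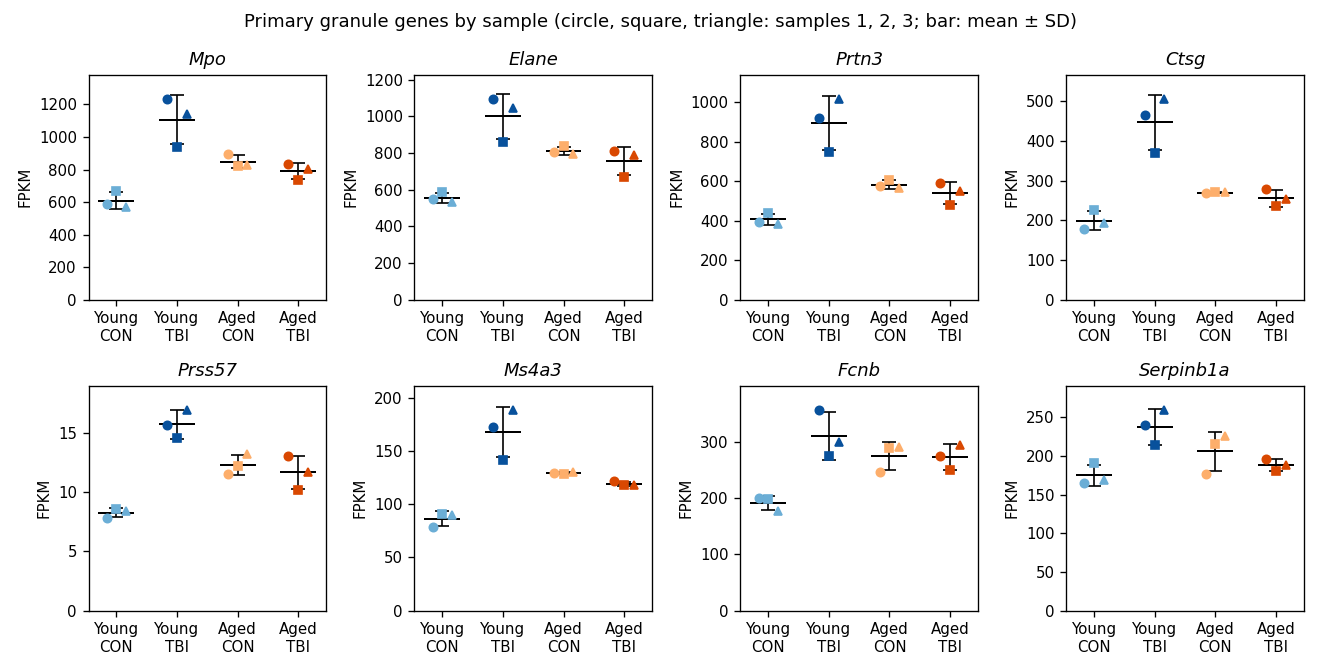
FPKM (vertical axis, starting at 0, with its own scale per gene) of each of the 8 genes in the 12 samples by group, with bars for the mean and SD of 3 samples. Young-TBI is the highest group for each gene, and for Mpo its samples run from 940.1 to 1234 FPKM against 571 to 668 FPKM in Young-CON.

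Among the serine proteases, Elane was at 551, 586 and 531 FPKM in Young-CON and at 1095, 859 and 1045 FPKM in Young-TBI. It was at 807, 837 and 796 FPKM in Aged-CON and at 809, 667 and 788 FPKM in Aged-TBI. The young groups did not overlap, and both aged groups lay below all Young-TBI samples and above all Young-CON samples. Prtn3 was at 396, 441 and 384 FPKM in the young controls against 919, 749.8 and 1018 FPKM in Young-TBI, while Aged-CON held 574, 608 and 564 FPKM and Aged-TBI 593, 481 and 553 FPKM. It showed the same order of groups, with a larger distance between the young groups.

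Ctsg was at 178, 226 and 194 FPKM in Young-CON and at 465, 370.4 and 506 FPKM in Young-TBI. Its Aged-CON samples were nearly alike, at 268, 271 and 270.0 FPKM, and its Aged-TBI samples were at 279, 235 and 252 FPKM. Ctsg had the largest ratio between the young groups of any member, 2.24, while its aged groups overlapped. Prss57 was the member of lowest level by a wide margin, at 7.84, 8.62 and 8.39 FPKM in the young controls and 15.7, 14.5 and 17.0 FPKM after injury. Its aged controls were at 11.5, 12.2 and 13.2 FPKM and the aged injured samples at 13.1, 10.2 and 11.7 FPKM. Its FPKM was 0.0142 to 0.0169 times that of Elane in the 12 samples.

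Ms4a3, of the granulocyte and monocyte progenitors, was at 78.7, 91.1 and 89.3 FPKM in Young-CON and at 173, 142 and 189 FPKM in Young-TBI. In Aged-CON it was at 129, 128 and 129.9 FPKM and in Aged-TBI at 121, 118 and 118 FPKM. It was the only member whose aged groups did not overlap, with the injured group lower by a fold of 0.922. Fcnb, the ficolin gene, was at 199.8, 197 and 177 FPKM in the young controls and 357, 274 and 298 FPKM in the young injured samples. Among the aged it was at 246, 288 and 290.2 FPKM without injury and at 275, 249 and 293 FPKM with it. Its young groups did not overlap, and its Aged-TBI values overlapped those of Young-TBI.

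Serpinb1a, which inhibits the proteases, differed least between the young groups. It was at 165, 191 and 169 FPKM in Young-CON and 240.3, 214 and 260.0 FPKM in Young-TBI. For Aged-CON the values were 177, 216 and 226 FPKM and for Aged-TBI 196, 180.0 and 189 FPKM. Its Aged-CON values overlapped both young groups. Its close copies Serpinb1b and Serpinb1c were at most at 0.05 FPKM in any sample, and Fcna, the other mouse ficolin gene, at 10.2 to 34.6 FPKM.

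The order of the levels was nearly fixed. In 7 samples it was Mpo, Elane, Prtn3, Ctsg, Fcnb, Serpinb1a, Ms4a3 and Prss57 from high to low. In 4 samples Fcnb stood above Ctsg, and in 1 sample, Aged-CON 2, Fcnb stood above Ctsg and Elane above Mpo. The ratio of Mpo to Elane lay between 0.984 and 1.14 in all samples. Fcnb and Ctsg did not keep an order across the groups, since in Young-TBI Ctsg was the higher in all 3 samples. Over the 12 samples the 8 genes together made up 0.455%, 0.502% and 0.452% of all FPKM in young controls and 0.918%, 0.736% and 0.914% in injured young mice. In aged mice the shares were 0.639%, 0.636% and 0.623% without injury and 0.647%, 0.551% and 0.620% with it. Young-TBI 2 was the lowest of its group for 8 of 8 genes, Aged-TBI 2 the lowest of its group for 7 and Young-CON 2 the highest of its group for 7.

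The first comparison asks how injury changed the marrow of young mice. All 8 genes were higher in Young-TBI than in Young-CON, with differences in log2(FPKM + 1) of 1.16 (SE 0.12) for Ctsg, 1.13 (SE 0.11) for Prtn3, 0.94 (SE 0.09) for Ms4a3, 0.85 (SE 0.10) for Mpo, 0.85 (SE 0.09) for Prss57, 0.84 (SE 0.10) for Elane, 0.68 (SE 0.11) for Fcnb and 0.44 (SE 0.10) for Serpinb1a. These are 2.24, 2.20, 1.94, 1.82, 1.90, 1.80, 1.62 and 1.36 times the control means. The median was 0.85, against −0.02 over all tested genes. All 8 passed an adjusted p under 0.05 in limma, higher, where 2.0% of all tested genes did, and the groups did not overlap for any of the 8, where 12.9% of genes were higher without overlap. Both counts follow from how the genes were chosen. Leaving out single samples left 7 or 8 passing, where 0.476% to 3.68% of all genes passed higher. A difference stayed above 0 for each gene in 24 of 24 alternative settings.

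**Figure D2:**
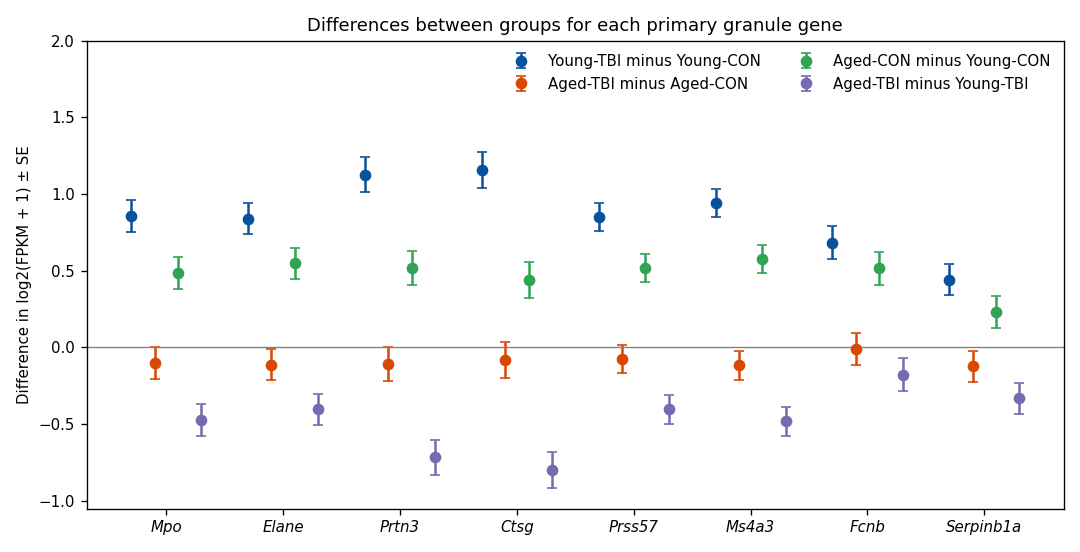
Difference in log2(FPKM + 1) between 2 groups (vertical axis, with SE from the limma fit) for each of the 8 genes and 4 comparisons. The young injury differences run from 0.44 to 1.16, the age differences in controls from 0.23 to 0.58, the aged injury differences lie between −0.12 and −0.01, and the age differences after injury run from −0.80 to −0.18.

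In aged mice the same comparison gave differences near 0. They were −0.12 (SE 0.09) for Ms4a3, −0.12 (SE 0.10) for Serpinb1a, −0.11 for Elane and Prtn3, −0.10 for Mpo, −0.08 for Ctsg and Prss57 and −0.01 for Fcnb, with a median of −0.10 against −0.02 over all tested genes. None of the 8 passed in limma, where 0.323% of genes passed in either direction, and none passed with voom on the recovered fragments. The genes were chosen with the lack of this difference known, so these counts follow in part from that choice. The groups did not overlap for 1 member, Ms4a3, which was lower, where 22.2% of all genes did not overlap in either direction. Red cell precursor genes were higher in Aged-TBI (mean log2 7.68 ± 0.06) than in Aged-CON (6.86 ± 0.51), and Alas2, which starts heme production in the red cell line, was at 926, 915 and 940.0 FPKM against 911, 458 and 476 FPKM. With the erythroid mean as a covariate the median of the 8 was 0.05, and none passed.

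The third comparison sets aged against young controls. All 8 genes were higher in Aged-CON, with differences of 0.58 for Ms4a3, 0.55 for Elane, 0.52 for Prtn3, Prss57 and Fcnb, 0.48 for Mpo, 0.44 for Ctsg and 0.23 for Serpinb1a, and a median of 0.52 against −0.05 over all genes. Ms4a3 was 1.49 times, Elane 1.46 times and Ctsg 1.35 times the young control mean. Of the 8, 6 passed in limma (not Ctsg and Serpinb1a), higher, where 0.79% of all genes did, and 7 did not overlap (not Serpinb1a), where 4.78% were higher without overlap. The limma count was 3 without Young-CON 3 or Aged-CON 2, where 0.263% and 0.289% of all genes passed higher. It was 4 without Young-CON 1, where 0.773% did. The young injury and age comparisons share the Young-CON samples, so they are not independent. For Elane the mean was 556 ± 28.2 FPKM in Young-CON, 813 ± 21.6 FPKM in Aged-CON and 999.7 ± 124 FPKM in Young-TBI (SD, n = 3 each).

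After injury the order of the ages was turned round. All 8 genes were lower in Aged-TBI than in Young-TBI, by differences of −0.80 for Ctsg, −0.72 for Prtn3, −0.48 for Ms4a3, −0.47 for Mpo, −0.40 for Elane and Prss57, −0.33 for Serpinb1a and −0.18 for Fcnb. The median was −0.44 against −0.05 over all genes. Ctsg was at 0.572 and Prtn3 at 0.606 times the Young-TBI mean. Of the 8, 6 passed in limma (not Fcnb and Serpinb1a), lower, where 6.93% of genes did, and 7 did not overlap (not Fcnb), where 26.6% were lower without overlap. Both counts follow in part from how the genes were chosen. The comparison also shares the Young-TBI samples with the young injury comparison, so these 2 are not independent. The limma count was 2 without Young-TBI 3, where 2.17% of all genes passed lower. It was 3 without Young-TBI 1, Aged-TBI 2 or Aged-TBI 3, where 3.76%, 3.17% and 2.86% did. With the erythroid covariate it was 0, where 93 of the 11767 genes passed lower, and the median was −0.34.

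The difference of the injury effects, aged minus young, was below 0 for all 8 genes. It was −1.24 (SE 0.17) for Ctsg, −1.23 (SE 0.16) for Prtn3, −1.06 (SE 0.13) for Ms4a3, −0.96 (SE 0.15) for Mpo, −0.95 (SE 0.14) for Elane, −0.92 (SE 0.13) for Prss57, −0.69 (SE 0.15) for Fcnb and −0.56 (SE 0.14) for Serpinb1a. The median was −0.95, against 0.02 over all genes. Of the 8, 6 passed in limma (not Fcnb and Serpinb1a), where 0.178% of all genes did so with a negative difference, and nothing is read from that count since the genes were chosen on this difference. The count depended on single samples. It was 0 when any 1 of Young-CON 1, Young-CON 3, Young-TBI 1, Young-TBI 3, Aged-CON 2, Aged-CON 3, Aged-TBI 2 or Aged-TBI 3 was left out. In those fits 0 of all 11767 genes passed, except for 1 without Aged-CON 3 and 2 without Aged-TBI 2. It was 6 without Young-CON 2, 7 without Young-TBI 2, 4 without Aged-TBI 1 and 8 without Aged-CON 1. In the same order 0.127%, 0.518%, 0.0425% and 8.79% of all genes passed with a negative difference. With the erythroid covariate 0 of the 8 passed, where 2 of the 11767 genes did, both above 0, and the median of the 8 was −0.88. Direction held for all 8 in each of 23 alternatives. Without both Young-CON 2 and Aged-CON 1, the samples apart in red cell genes, the medians were 0.90 for young injury, −0.12 for aged injury, 0.59 for age in controls, −0.44 for age after injury and −0.99 for the difference of injury effects. The counts passing were then 8, 1, 8, 7 and 8, in the same order. Of all genes, 3.76% then passed higher for young injury, 8.01% higher for age in controls, 13.5% lower for age after injury and 12.3% below 0 for the difference of effects. The 1 member in aged mice was Serpinb1a, lower, where 1652 of the 11767 genes were lower.

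The 8 genes did not all move by the same factor, and ratios within a sample show where they parted. Relative to Elane, Mpo was at 1.09 ± 0.04 in young controls and 1.10 ± 0.02 after injury, and at 1.04 ± 0.06 and 1.05 ± 0.05 in the aged groups (SD, n = 3 each). The FPKM of Mpo and Elane thus moved nearly in step. The ratio of Prtn3 to Elane was 0.719, 0.752 and 0.724 in Young-CON and 0.839, 0.873 and 0.974 in Young-TBI, with no overlap, and 0.702 to 0.733 in the 6 aged samples. The ratio of Ctsg to Elane was 0.323, 0.386 and 0.366 in Young-CON and 0.424, 0.431 and 0.484 in Young-TBI, against 0.320 to 0.352 in the aged samples. Both proteases were thus higher in relation to Elane in Young-TBI than in any other sample. Prtn3 and Elane are neighbouring genes, and their ratio was nevertheless not the same in all groups.

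The ratio of Serpinb1a to Elane went the other way. It was 0.299, 0.326 and 0.319 in Young-CON and 0.219, 0.249 and 0.249 after injury, with 0.254 ± 0.032 for aged controls and 0.251 ± 0.017 for aged injured samples. Young-CON held the most inhibitor RNA per elastase RNA, with every sample above the other 9. The ratio of Fcnb to Elane was 0.344 ± 0.016, 0.310 ± 0.021, 0.338 ± 0.031 and 0.362 ± 0.019 for young control, young injured, aged control and aged injured samples. The ratios of Ms4a3 and Prss57 to Elane overlapped between all 4 groups. No test was run on these ratios, which were looked at with the values known.

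**Figure D3:**
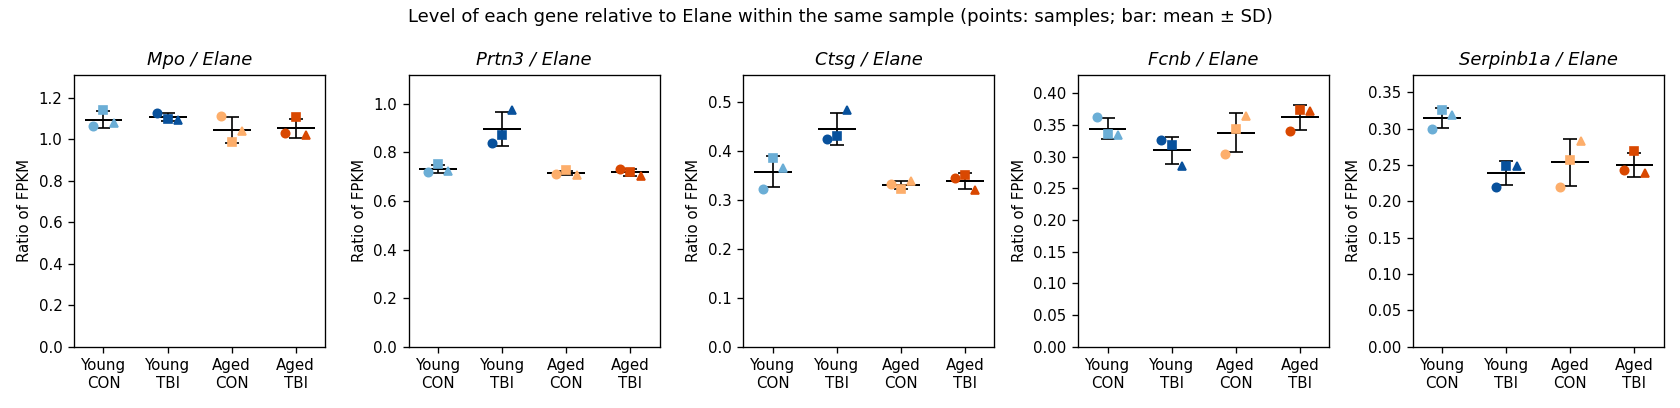
Ratio of FPKM of Mpo, Prtn3, Ctsg, Fcnb and Serpinb1a to that of Elane in the same sample (vertical axis, starting at 0) by group, with bars for the mean and SD of 3 samples. Prtn3 and Ctsg stand highest against Elane in Young-TBI (0.839 to 0.974 and 0.424 to 0.484), and Serpinb1a stands highest in Young-CON (0.299 to 0.326).

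Across all 12 samples the 28 pairs of members had Pearson correlations of log2(FPKM + 1) from 0.779 to 0.989, with a median of 0.936. Deviations from the group means gave 0.242 to 0.914 with a median of 0.682, so the samples of a group also varied together. All pairs share the library and its depth. The members were chosen with a shared pattern known, so high correlations across the 12 samples follow in part from the choice. These values are a description. Without Young-CON 2 and Aged-CON 1, a choice made after seeing the data, the correlations over the other 10 samples were 0.789 to 0.992, with a median of 0.947.

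The other contents of the granule had a smaller median change. Their list holds lysosomal hydrolases, membrane proteins and Ctsc, was drawn up with earlier results of these data known, and had 23 of 24 genes tested. In young mice 7 rose after injury, none fell, and the median log2 change was 0.18. Ctsc, cathepsin C, which activates the granule proteases, was at 83.3, 67.0 and 61.5 FPKM in Young-CON and 111, 96.3 and 136 FPKM in Young-TBI, a log2 change of 0.68 (SE 0.15, adjusted p = 0.021 in limma). The call was lost when Young-CON 2 or 3, or Young-TBI 1 or 3, was left out (adjusted p up to 0.105). Gusb, β-glucuronidase, was at 41.9, 45.1 and 43.4 FPKM in Young-CON and 60.4, 54.7 and 64.5 FPKM in Young-TBI, a change of 0.45 (SE 0.08, adjusted p = 0.00801 in limma) that was kept when any 1 sample was left out. Both genes stood above all young controls in every Young-TBI sample. Lamp1, a lysosomal membrane protein, rose by 0.32 (adjusted p = 0.00906 in limma, up to 0.0545 without Young-TBI 1 or Young-TBI 3). The count of 7 fell to 1 without Young-TBI 1 or Young-TBI 3, to 2 without Young-CON 2 or Young-CON 3, to 3 without any 1 of the Aged-TBI samples and to 4 without Young-CON 1. Markers of lysosomes of other cells, such as Ctsz and Lamp1, are part of this list, and their source in marrow was not tested.

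In aged mice 0 of the 23 passed after injury in limma, with a median of −0.10, while 3 were lower and 0 higher before adjustment (p under 0.05), and 0 passed with voom. Without Aged-CON 1, 1 was higher and 5 were lower. After injury, 7 of 23 were lower in aged than in young marrow (median −0.22); the count was 4 without Young-TBI 1, Young-TBI 3 or Aged-TBI 2 and 11 without Aged-CON 1. Ctsc was at 70.3, 68.9 and 57.3 FPKM in Aged-TBI, lower than in Young-TBI by a log2 change of −0.78 (adjusted p = 0.00902 in limma). Gusb was lower by −0.42 (adjusted p = 0.00817 in limma) and Naaa, a lysosomal amidase, by −0.56 (adjusted p = 0.00585 in limma); these calls were kept when any 1 sample was left out. No gene of the list passed for the difference of the injury effects in limma or voom (median −0.30; without adjustment, 12 were below 0 and 0 above at p under 0.05), and 13 passed, all below 0, without Aged-CON 1.

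Srgn, serglycin, the proteoglycan on which the proteases are packed, was at 348, 397 and 367 FPKM in Young-CON and 490.1, 435 and 536 FPKM in Young-TBI. The aged samples held 435, 517 and 481 FPKM without injury and 389, 384 and 376 FPKM with it. It rose after injury in young mice by 0.39 (SE 0.09, adjusted p = 0.0292 in limma), a call lost when Young-CON 1 or 3, or Young-TBI 1 or 3, was left out (adjusted p up to 0.135). Srgn and Ctsc were the 2 genes that passed, both higher, among 19 tested genes of granule packing, protease activation and traffic, whose median change was 0.03. The count was 1 without Young-CON 1 or 2 and 0 without Young-CON 3, Young-TBI 1 or Young-TBI 3. Calr, calreticulin, which helps myeloperoxidase fold, had a change of 0.12 (adjusted p = 0.59 in limma). In aged mice 0 of the 19 passed after injury in limma or voom (median −0.10; before adjustment 6 were lower and 1 higher), and 6 were lower without Aged-CON 1.

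Stfa2, a stefin that inhibits cysteine proteases, was the 1 gene to pass among 11 tested genes of protease inhibitors in young mice, from 1.55, 3.39 and 2.64 FPKM to 10.5, 9.06 and 10.3 FPKM (log2 change 1.67, adjusted p = 0.00542 in limma). Stefin genes are near-identical copies, so its value is uncertain. The abundant inhibitor Slpi, at 165 to 203 FPKM in Young-CON and 166 to 177 FPKM in Young-TBI, had a change of −0.06 (adjusted p = 0.865 in limma).

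Few regulators of the promyelocyte stage passed the test. Of 17 tested in young mice after injury, 0 rose and 1 fell, with a median of 0.04; before adjustment 3 were higher and 2 lower. Ets1, a factor of lymphoid cells as well, fell by 0.52 on the log2 scale (adjusted p = 0.00538 in limma). Spi1, which encodes PU.1, had a change of 0.09 (adjusted p = 0.749 in limma), Cebpa 0.15 (0.438), Cebpe, which drives the later granules, 0.31 (0.118) and Gfi1 0.29 (0.163). Myb, whose word stands in the Prtn3 and Elane promoters printed above, had a change of −0.16 (adjusted p = 0.283 in limma). In controls Myb was lower in aged marrow, at 51.6, 47.4 and 49.2 FPKM against 65.5, 72.4 and 77.8 FPKM, a log2 change of −0.53 (adjusted p = 0.002 in limma). Irf8, which favours monocytes over neutrophils, was also lower there, at 74.2, 72.7 and 72.6 FPKM against 98.6, 106 and 100.3 FPKM (−0.47, adjusted p = 0.00125 in limma). Both calls were kept when any 1 sample was left out. With Ets1 (−0.36, adjusted p = 0.0218 in limma, a call lost without Young-CON 2, Young-CON 3 or Aged-CON 2) they were the 3 of 17 that were lower with age in controls, and 0 were higher. The median was 0.11, with 10 of 17 above 0, and before adjustment 4 were higher and 4 lower. Without Aged-CON 1, 6 were higher and 3 lower. With all 12 samples, 17 of 18 B cell genes were lower with age in controls (median −1.91). The part of B cells in the lower levels of Myb, Irf8 and Ets1 was not tested.

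A further list holds genes known to accompany the granule genes in early progenitors. Of its 20 tested companions without Ms4a3, 8 rose and 1 fell in young mice after injury, with a median of 0.24. Nkg7, a granule membrane protein that natural killer cells also make, was at 61.5, 63.4 and 56.6 FPKM in Young-CON and 97.6, 84.6 and 91.0 FPKM in Young-TBI (0.58, adjusted p = 0.00521 in limma). Ramp1, a partner of the calcitonin receptor family, was at 15.2, 17.0 and 15.9 FPKM in Young-CON and 22.8, 21.2 and 23.1 FPKM in Young-TBI (0.45, adjusted p = 0.00573 in limma). Both calls were kept when any 1 sample was left out. The count of 8 was 2 without Young-TBI 3, 3 without Young-CON 3 or Young-TBI 1 and 5 without Young-CON 1. In aged mice 0 of the 20 passed in limma or voom (median −0.14; before adjustment 5 were lower and 1 higher), and without Aged-CON 1 the counts were 6 lower and 1 higher. Between controls 3 were higher with age (Nkg7, Ap3s1 and Igfbp4), a count that was 1 without Young-CON 3, Aged-CON 2, Aged-CON 3 or Aged-TBI 1, and 10 without Aged-CON 1. Nkg7 was at 95.8, 80.9 and 78.4 FPKM in Aged-CON (0.48, adjusted p = 0.00742 in limma).

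The genes of the later granules, which are made after the primary ones, are given beside them. In young mice 1 of 21 tested secondary and tertiary granule genes rose after injury, Cst7 (4 without Aged-CON 1), and none fell, with a median of 0.20; before adjustment 5 were higher and 1 lower. Cst7, cystatin F, an inhibitor of cathepsin C, was at 29.1, 31.3 and 28.8 FPKM in Young-CON and 49.1, 43.0 and 52.3 FPKM in Young-TBI (0.67, adjusted p = 0.00293 in limma). Camp, the cathelicidin of secondary granules, was at 3889, 4247 and 3585 FPKM in Young-CON and 4664, 4076 and 4300 FPKM in Young-TBI (0.16, adjusted p = 0.533 in limma), so these groups overlapped. Olfm4, of a subset of neutrophils, changed with age, from 57.9, 55.8 and 46.4 FPKM in Young-CON to 139, 140.3 and 149 FPKM in Aged-CON (1.41, adjusted p = 3.66e-05 in limma), while injury in young mice gave a change of 0.26 (adjusted p = 0.262 in limma). With age in controls 20 of the 21 were above 0 (median 0.26), 2 passed higher, and 10 were higher before adjustment. Without Young-CON 2 and Aged-CON 1, 19 passed higher (median 0.46), where 8.01% of all genes did. For the difference of injury effects 1 passed, below 0 (median −0.40), and without those 2 samples 18 did, where 12.3% of all genes did. In aged mice 0 of the 21 passed after injury in limma or voom (median −0.22; before adjustment 4 were lower and 0 higher). Without Aged-CON 1, 16 of the 21 and 0 of the 8 primary granule genes were lower in Aged-TBI, where 12.9% of all genes passed lower and 27.8% in either direction. The 8 were chosen with the lack of an injury difference in aged mice known, so their 0 follows in part from that choice. The difference between these lists was not tested. Among 18 mature neutrophil genes, 0 rose and 1, the chemokine gene Ccl6, fell in young mice (median −0.16); the call was lost when Young-CON 2 or 3, or Young-TBI 1 or 3, was left out, and 4 fell without Aged-CON 1. In aged mice the median was −0.47, with 18 of 18 below 0, 16 of them at an unadjusted p under 0.05. Those that passed were 2, both lower, Il1b, the gene of the cytokine interleukin-1β (−1.24, adjusted p = 0.00645 in limma), and Ptgs2, a cyclooxygenase gene (−1.16, adjusted p = 0.00358 in limma). Both calls were kept when any 1 sample was left out, and without Aged-CON 1 the count was 18. With age in controls 18 of 18 mature neutrophil genes were above 0 (median 0.38), 2 passed higher, and 9 were higher before adjustment. Without Young-CON 2 and Aged-CON 1, 16 passed higher (median 0.68), where 8.01% of all genes did. For the difference of injury effects 0 passed (median −0.39), and without those 2 samples 14 passed below 0, where 12.3% of all genes did.

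**Figure D4:**
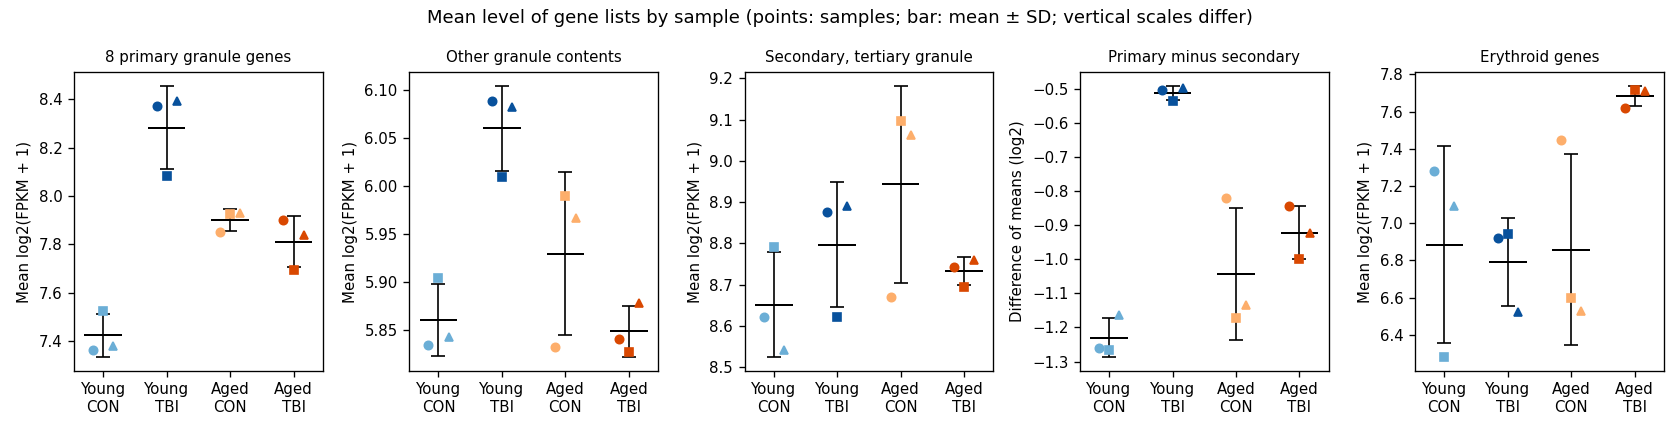
Mean log2(FPKM + 1) of gene lists in each of the 12 samples (vertical axes, which differ in scale), the difference of the primary and the secondary means, and the erythroid mean, with bars for the mean and SD of 3 samples. The difference of means is −0.54 to −0.50 in Young-TBI and −1.27 to −1.16 in Young-CON, and erythroid genes are highest in Aged-TBI. The primary granule genes were chosen with their rise in Young-TBI known.

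The difference between the mean log2 level of the 8 genes and that of the later granule genes was −1.26, −1.27 and −1.16 in young controls and −0.51, −0.54 and −0.50 in Young-TBI. It was −0.82, −1.17 and −1.14 in the aged controls and −0.85, −1.001 and −0.92 after injury. Young-TBI stood above all other samples, and Aged-CON 1, the control sample high in red cell genes, stood with Aged-TBI. The 8 genes were chosen with their rise in Young-TBI known, so the place of Young-TBI follows in part from that choice. In Young-TBI 2, where the primary mean was lowest of its group (8.08), the later mean was lowest as well (8.62), and the difference matched that of the other 2 samples. Cell cycle genes, which dividing precursors use, had 0 of 25 passing in young mice in limma or voom (median 0.18; before adjustment 3 were higher), and 2 rose without Aged-CON 1. In aged mice 0 passed in limma or voom (median 0.38; before adjustment 23 were higher), and 25 rose without Aged-CON 1. The part of cell division in the levels of the granule genes was not tested.

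Other marrow cells moved with the same groups. B cell genes fell in young mice after injury, 14 of 18 (median −1.09), as did 9 of 17 T and natural killer cell genes and 5 of 8 basophil and mast cell genes. The second count was 3 or 4 when Young-CON 2 or 3, or Young-TBI 1 or 3, was left out. The last count was 3 without any 1 of the Young-CON samples and without Young-TBI 2 or 3. Nkg7 was the 1 gene of the T and natural killer cell list that rose. Of 18 monocyte genes 4 rose and 3 fell (median 0.19), and 1 to 7 rose and 0 to 4 fell with single samples left out. Between the injured groups 9 of the 18 were lower in aged marrow and 0 higher (median −0.34), and 5 to 12 were lower with single samples left out. Megakaryocyte and platelet genes were above 0 in 12 of 12 (median 0.74); 0 passed in limma and 1 with voom, and 5 were higher before adjustment. With age, B cell genes were lower in 17 of 18 between controls (median −1.91), and after injury 14 were lower and 1 higher (median −1.13). These differences stand beside the age differences of the granule genes, and their part in them was not tested. Between the injured groups 5 of 8 basophil and mast cell genes were higher in aged marrow. FPKM is a share of the total, so a fall of other cells' RNA raises the shares of the rest; their part in the rise of the granule genes was not tested. Of the 20 erythroid genes tested, 0 passed in young mice in limma or voom (median −0.06, 0 before adjustment). In aged mice 0 passed in limma or voom (median 0.82), 19 were higher before adjustment, and 20 rose without Aged-CON 1.

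The genes nearest the members were examined to see whether whole regions moved. Neighbours were matched by symbol, and 24 tested protein-coding genes were found within 100 kb of a member. In young mice after injury 1 rose and 1 fell, with a median of −0.02. Lppr3, which overlaps Prtn3, bears another symbol in the annotation and is not among the 24. It was at 10.6, 9.48 and 9.10 FPKM in Young-CON and 11.8, 11.4 and 14.9 FPKM in Young-TBI, without overlap. Med16, 6493 bases from Elane, had a change of 0.12 (adjusted p = 0.423 in limma), and Palm, 2611 bases from Prss57, one of 0.06 (adjusted p = 0.797 in limma). Epx, eosinophil peroxidase, 59587 bases from Mpo, had one of −0.22 (adjusted p = 0.888 in limma). Mcpt8, a protease of basophils that lies 14608 bases from Ctsg, went the other way, from 93.9, 95.7 and 78.6 FPKM to 56.7, 47.2 and 47.5 FPKM, a log2 change of −0.81 (adjusted p = 0.00743 in limma). Ms4a6d, a gene of monocytes near Ms4a3, rose by 1.27 (adjusted p = 0.0119 in limma), a call lost without Young-CON 3 or Young-TBI 3.

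The 10 genes whose pattern over the 12 samples was most like the mean of the members had Pearson correlations of 0.946 to 0.982. They were Ramp1, B4galt6, Sestd1, Cst7, Slc36a1, Lbp, Alas1, Tpi1, Tmem180 and Pam. B4galt6, a galactosyltransferase gene, was at 9.64 ± 0.53 FPKM in young controls, 18.8 ± 3.12 FPKM in young injured, 14.6 ± 0.49 FPKM in aged control and 13.6 ± 1.26 FPKM in aged injured samples, the order of groups seen in Elane. Alas1, which makes heme outside the red cell line, was at 46.6 ± 2.48, 70.5 ± 11.9, 59.1 ± 2.72 and 55.1 ± 5.56 FPKM in the same order (SD, n = 3 each). The 5 genes least alike were Cd55, Pcgf6, Bank1, Ccr6 and Cxcr5, with correlations of −0.938 to −0.917. Without Young-CON 2 and Aged-CON 1 the correlations of these genes were 0.946 to 0.986 and −0.943 to −0.919. Bank1, a B cell signalling gene, was at 12.9 ± 2.17 FPKM in young controls and 5.04 ± 1.21 FPKM after injury, with 8.86 ± 1.02 and 7.63 ± 0.70 FPKM in aged marrow.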

How the data were processed

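Values were deposited by the authors as FPKM, that is, fragments scaled to transcript length and to the depth of the library, with 1 value per symbol and sample. Per the labels' protocols, RNA was extracted with TRIzol for SMARTER libraries. Builds GRCm38 and mm10 and the software R 4.3.3 appear in the submitters' processing notes. The sources used here give no aligner, counter or annotation. FPKM is a share of the total. Of the entries, 27 carried names turned into dates and were not named.

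A gene was kept when 3 or more of the 12 samples reached 1 FPKM (11767 genes). Values were taken as log2(FPKM + 1), which understates changes of low genes, and modelled by group mean over all samples, with a variance trend, in limma 3.58.1 (R 4.3.3). P-values are two-sided, with Benjamini-Hochberg adjustment over all tested genes, and a gene rose or fell at an adjusted p under 0.05. Low values fell on steps that gave whole fragments within 0.05 for 99.3% of tested genes, and voom on these fragments was an alternative. The fit was tested on simulated data. Members and lists were chosen with earlier results of these data known, so the members' limma calls are a description, given beside the share of all genes, and no p-value is printed for them. Genes named beside them are up to 4 passing genes per list with the smallest adjusted p, abundant genes where none passed, neighbours, and the genes most and least alike; Spi1, Cebpa, Cebpe, Gfi1, Myb, Calr, Slpi, Camp and Olfm4 in the young injury comparison were named for their roles after their values were seen. Sequences are from RefSeq on GRCm38.p6.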

Additional observations from a re-analysis of the deposited data

Results flagged for a closer look

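The difference of the injury effects, aged minus young, passed in limma for 6 of the 8 granule genes, which were chosen with that difference known. In log2 units it was −0.95 for Elane, −0.96 for Mpo, −1.23 for Prtn3, −1.24 for Ctsg, −0.92 for Prss57 and −1.06 for Ms4a3. It also passed for B4galt6 (−0.99), Cst7 (−0.74) and the B cell chemokine receptor gene Ccr6 (1.13). These were named because their pattern was most or least like the mean of the members, so their values follow from that choice and are a description. Nkg7 (−0.75) and Stfa2 (−2.10), from lists drawn up with earlier results known, passed at an adjusted p of 0.0491 in limma. Each of these 5 calls was lost in 9 or 10 of the 12 fits that left out 1 sample, with an adjusted p of up to 0.143. In Nkg7 the mean was 60.5 FPKM in Young-CON and 91.1 FPKM in Young-TBI, against 85.0 and 75.5 FPKM in the aged groups. Groups of 3 samples were not searched for single outlying samples by a set rule. Young-CON 2 and Aged-CON 1 were picked out by their red cell genes after the data were seen.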

How the results depend on the processing

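The median change of the 8 genes kept its direction in 118 of 119 alternatives and moved past the spread in 1, the aged injury comparison with an erythroid covariate (0.048). Leaving out single samples gave medians of 0.81 to 0.96 for young injury, −0.15 to −0.02 for aged injury, 0.47 to 0.55 for age in controls, −0.55 to −0.37 for age after injury and −1.06 to −0.89 for the interaction. Counts of all genes passing moved more, and their causes were not tested. With single samples left out they ran from 160 to 970 for young injury, 11 to 3266 for aged injury, 280 to 1675 for age in controls, 314 to 2129 for age after injury and 0 to 2104 for the interaction, against 606, 38, 586, 1165 and 23. With only the 6 samples compared they were 390, 11, 284 and 2261, and the interaction was not fitted. With weights per sample they were 1595, 3557, 2508, 2740 and 2977, and with the erythroid covariate 1321, 11, 995, 146 and 2. Without both Young-CON 2 and Aged-CON 1 they were 3527 for aged injury and 2730 for age in controls. They were then 2571 for age after injury and 3043 for the interaction. In controls 18 of 20 erythroid genes then passed lower with age (median −0.63), against 0 with all samples (median −0.03). The age changes of Bsg (−0.38), Rhd (−0.56), Slc4a1 (−0.63) and Trim10 (−0.59) changed sign. None of these 4 had passed with all samples, where Bsg was at 0.01. No filter gave 17 for aged injury and 2 for the interaction, no variance trend 21 and 6. For the interaction a filter at 5 FPKM gave 40, rescaling without 50 dominant genes 5 and voom 44. Quantile normalization gave 462 higher and 549 lower for age after injury (350 and 815 without it), 129 and 359 for age in controls (93 and 493) and 6 and 19 for the interaction (2 and 21). Samples that share a number did not vary together: of 18 pairs, 3 had a correlation over 0.1 (−0.22 to 0.29), and 4 of 12 samples correlated best with their own number. With the replicate block 0 genes passed for the interaction, and the counts of members passing were 8, 0, 6, 6 and 0. Of all 11767 genes, 472 passed for young injury, 38 for aged injury, 518 for age in controls and 1085 for age after injury. Of the members' changes, 937 of the values under alternatives were within the spread and 15 were not. With 3 samples per group and an SE of about 0.1, differences of several times the SE could fail to pass. Serpinb1a at −0.33 (SE 0.10) between the injured groups and Ctsg at 0.44 (SE 0.12) between controls did not. Small differences such as those in aged mice cannot be resolved.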
